A study of Homo sapiens with 12 samples.

Results

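Human induced microglia-like cells (iMGLs), which are grown in a dish as a stand-in for the resident macrophages of the brain, were left as controls or given lipopolysaccharide (LPS), a glycolipid of the outer membrane of Gram-negative bacteria. Described here is the response of the unedited (WT) cells. It was taken from 5 of the 12 libraries of the series, which were chosen by their group labels: 2 libraries of WT iMGLs given LPS (WT LPS) and 3 libraries of WT iMGLs labelled control (WT), which the series' design text calls vehicle-treated. Both groups came from H1, an established human pluripotent stem cell line, and carry no edit. The other 7 libraries came from MEF2C knockout (KO) cells of the same line, with 3 controls, 2 given LPS and 2 given LPS with BMS265246, a CDK inhibitor. A single cell line limits the model, and brain stands as the tissue in the labels although the cells were cultured. Neither the dose of LPS nor the time of exposure stands in the sources used here. Nothing states that replicates came from separate differentiations, so p-values measure the spread between these libraries, which may be technical in part.

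Total RNA was sequenced and the reads were counted per gene. The 5 libraries held 16700733 to 17639136 counts. Levels are counts-per-million (CPM) of the scaled libraries, where the limit that a count of 0 leaves, 3 counts, lay at 0.154 to 0.199 CPM and covers counting error only. Pearson's r of log2 CPM between replicates was 0.992 to 0.993 in WT and 0.990 in WT LPS, taken over genes, which do not count as replicates. Chi-square per degree of freedom was 2.34 to 3.70 within WT and 7.18 between the WT LPS libraries, so no library was a copy of another. Of 18 microglial and macrophage markers, 16 passed the filter on low counts, and their summed level was 8916 to 9075 CPM in WT and 8516 to 9194 CPM in WT LPS. Such a sum is set by the most abundant members. By the test given below, 7 of the 16 were lower with LPS, 3 of them at least 2-fold, and 2 were higher. SALL1 and CD68 had 0 to 2 counts in any of the 5 libraries and were not tested. How reads were assigned to genes is not known, so such counts do not show that a transcript was absent. Of the T cell, B cell and pluripotency markers CD3D, CD3E, MS4A1, SOX2, POU5F1 and NANOG, none passed the filter. Monocyte and border macrophage markers summed to 5261 to 5435 CPM in WT and 5382 to 5443 CPM in WT LPS. The part that other cell types play in the results was not tested.

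LPS is bound by CD14 and LY96 and signals through TLR4, whose adaptors MYD88 and TICAM1 lead to the NF-kB transcription factors and to interferon regulatory factors. In macrophages and microglia this route is known for switching on cytokines, chemokines and their own brakes, and for a change of metabolism. Several genes that mark resting microglia are known to fall when such cells are activated.

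LPS was followed by a change in more genes than not. Of 16022 genes tested with edgeR's quasi-likelihood test, 4628 (28.9%) were higher and 4932 (30.8%) were lower in WT LPS at a Benjamini-Hochberg adjusted p under 0.05, which together is 59.7%. All adjusted p-values below are from that test, and a log2 fold change, or a rise or fall by a value with ±, is WT LPS against WT on the log2 scale with its standard error. At least 2-fold changes were fewer, with 1343 genes higher (8.38%) and 1883 lower (11.8%). The tail of large rises was longer than that of large falls: 244 genes rose and 86 fell at least 8-fold, and 66 rose and 14 fell at least 32-fold. Genes that rose at least 2-fold took 6.28% to 6.43% of all CPM in WT and 20.2% to 20.4% in WT LPS. Genes that fell at least 2-fold took 7.04% to 7.39% in WT and 2.24% to 2.36% in WT LPS. The libraries of WT and WT LPS did not overlap for 11580 genes (72.3%), so a gene without overlap is no exception here. The median log2 fold change of all genes was -0.07. Scaling by library size alone moved it by a further -0.29 and left 2791 genes higher and 7651 lower, so small rises depend on the scaling. None of the 3226 changes of at least 2-fold turned sign under any alternative, but a shift of that size is too small to turn them. Of these 3226 calls, DESeq2 kept 2825 and library size alone 3166. In cultures measured in bulk, fewer cells of a type and less RNA per cell cannot be told apart.

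The receptor of LPS fell, and its adaptors and kinases did not move in one direction. TLR4 (ENSG00000136869, chr9:117704175-117724730, plus strand of GRCh38, as all gene positions here) stood at 180.5, 162 and 164 CPM in WT and 82.9 and 95.1 CPM in WT LPS. All 3 WT libraries lay above both WT LPS libraries, and TLR4 fell by 0.92 on the log2 scale (SE 0.08, adjusted p = 7.81e-10). CD14, which hands LPS to the receptor, was at 799, 812 and 880.0 CPM in WT and 1058 and 902 CPM in WT LPS, and its log2 fold change 0.24 ± 0.13 was not called (adjusted p = 0.134). LY96, the co-receptor that holds LPS, was at 42.3, 33.6 and 36.3 CPM in WT and 35.4 and 35.96 CPM in WT LPS and was not called either. CD180 and its partner LY86, which are relatives of TLR4 and LY96, fell, CD180 from 138, 123 and 126 CPM in WT to 39.01 and 41.2 CPM in WT LPS (log2 fold change -1.68 ± 0.11, adjusted p = 7.46e-10) and LY86 with a log2 fold change of -0.70 ± 0.11. Downstream, IRAK2 (ENSG00000134070, chr3:10164865-10243743, plus strand), a kinase of the MYD88 complex, stood at 8.05, 9.16 and 7.93 CPM in WT and 75.2 and 73.6 CPM in WT LPS. The groups did not overlap, and the rise in IRAK2 was the largest of the receptor and adaptor list (log2 fold change 3.15 ± 0.08, adjusted p = 2.85e-19). TICAM1, the adaptor towards interferon, rose by 1.14 ± 0.14, and MYD88 by 0.53 ± 0.06. The kinases MAP3K8, IKBKE and TBK1 rose by 1.65 ± 0.07, 1.28 ± 0.07 and 1.05 ± 0.07, while IRAK1, IRAK4 and IKBKG were not called. IRAK3, which lacks kinase activity and restrains the pathway, rose by 0.89 ± 0.06. In all, 13 of 24 tested members of this list were higher and 6 lower, with a median log2 fold change of 0.38, against 11 higher and 9 lower on library size alone. LBP and TICAM2 had 10 or fewer counts in each library and were not tested.

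Other Toll-like receptors went both ways, with 4 of 9 higher, 4 lower and a median of 0.17, which turned to -0.12 with library size alone as the scale. TLR8, an endosomal sensor of single-stranded RNA, was at 171, 157 and 159 CPM in WT and 1139 and 1269 CPM in WT LPS. Every WT library lay far below the LPS-treated pair, and TLR8 rose by 2.89 ± 0.06 (adjusted p = 7.27e-21). TLR2, a sensor of bacterial lipoproteins, went from 201, 195 and 196 CPM to 914 and 981 CPM (log2 fold change 2.27 ± 0.05, adjusted p = 8.68e-20), and its partner TLR1 rose by 1.24 ± 0.06. Falls were called for TLR3, a sensor of double-stranded RNA (-2.68 ± 0.44), TLR5, the flagellin receptor (-1.14 ± 0.12), and UNC93B1, which carries endosomal receptors to their place (-1.21 ± 0.23).

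**Figure D1:**
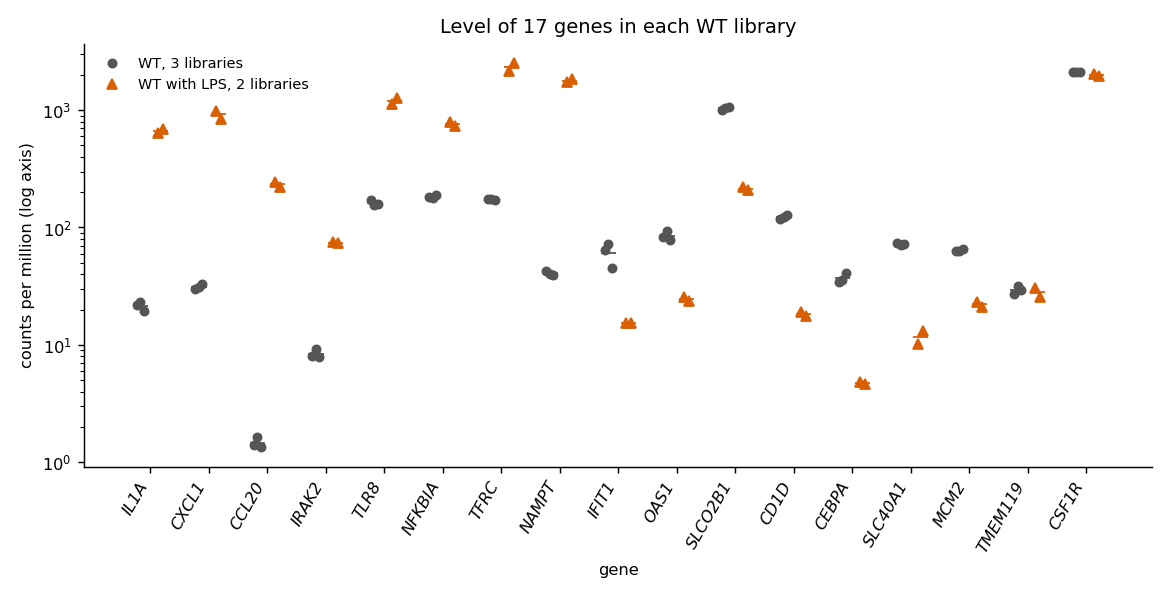
Level of 17 genes in each library, in CPM on a log axis, with grey circles for the 3 WT libraries, orange triangles for the 2 WT LPS libraries and short lines for group means. Symbols of the groups lie apart for IRAK2, TLR8, NFKBIA, NAMPT and TFRC (higher with LPS) and for SLCO2B1, CD1D, CEBPA, SLC40A1 and MCM2 (lower), and they overlap for TMEM119.

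NF-kB subunits and their inhibitors rose together: 17 of 20 members were higher, 12 at least 2-fold, and 0 were lower, with a median of 1.24. Among the subunits, NFKB1 was at 73.5, 73.1 and 70.5 CPM in WT and 449 and 421 CPM in WT LPS. The groups did not overlap, and NFKB1 rose by 2.59 ± 0.05. NFKB2 rose by 2.41 ± 0.08, RELB by 1.33 ± 0.18, REL by 0.93 ± 0.12 and RELA by 0.70 ± 0.09. The brakes of the pathway rose with them. NFKBIA (ENSG00000100906, chr14:35401511-35404749, minus strand), which holds NF-kB in the cytoplasm, was at 181, 177 and 188 CPM in WT and 798 and 736 CPM in WT LPS. Its groups lay far apart (log2 fold change 2.08 ± 0.06, adjusted p = 3.59e-18). TNFAIP3, a ubiquitin editing enzyme that ends NF-kB signalling, went from 143, 142 and 143 CPM to 849 and 862 CPM (log2 fold change 2.58 ± 0.05, adjusted p = 2.42e-21). TNIP1, a partner of TNFAIP3, rose by 2.94 ± 0.06, and NFKBIZ, a nuclear co-activator for secondary response genes, by 2.92 ± 0.06. TRAF1, an adaptor of TNF receptors, was at 21.4, 23.5 and 22.9 CPM in WT and 292 and 264 CPM in WT LPS and rose by 3.62 ± 0.07 (adjusted p = 1.92e-21). NFKBIE, NFKBIB and OTUD7B were not called, at 0.19 ± 0.13, 0.10 ± 0.21 and -0.05 ± 0.09.

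The promoters of some of these genes are shown because they hold the letters that NF-kB is known to bind. The table of RefSeq promoters (GRCh38.p14) holds 300 bases per start, 250 before and 50 after it, and 11305 of the 16022 tested genes matched by symbol, each by its first listed start. The NF-kB consensus, searched on both strands, stood in 12.96% of these 11305 promoters. It stood in 8 of 18 promoters of the NF-kB list, in 10 of 24 of the CC and CXC chemokine lists, in 16.2% of 914 promoters of genes that rose at least 2-fold, in 24.4% of 156 of those that rose at least 8-fold, and in 13.7% of 1267 of those that fell at least 2-fold. The AP-1 letters TGANTCA stood in 4.87% of all promoters and in 16.0% of those of genes that rose at least 8-fold. Among the genes shown next, IL6 rose by 6.95 ± 0.11 and PTX3 by 8.39 ± 0.16. A match is a description of letters and not a bound site. Each line gives 100 bases 5′ to 3′ on the strand of the gene, and capitals mark the match to the NF-kB consensus, which is a run of overlapping matches in CXCL1 and PTX3. The stretches are NFKBIA at chr14:35404776-35404875, minus strand, IL6 at chr7:22727082-22727181, plus strand, CXCL1 at chr4:73869270-73869369, plus strand and PTX3 at chr3:157436709-157436808, plus strand.
NFKBIA: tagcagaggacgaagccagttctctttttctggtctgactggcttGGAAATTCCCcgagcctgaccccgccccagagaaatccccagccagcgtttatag
IL6: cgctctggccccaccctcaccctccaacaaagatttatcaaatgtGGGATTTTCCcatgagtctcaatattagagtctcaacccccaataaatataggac
CXCL1: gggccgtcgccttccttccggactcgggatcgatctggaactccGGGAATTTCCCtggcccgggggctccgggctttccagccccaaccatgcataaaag
PTX3: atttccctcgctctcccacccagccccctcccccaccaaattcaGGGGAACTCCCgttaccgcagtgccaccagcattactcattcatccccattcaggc

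Inflammatory cytokines rose in 16 of 20 tested cases, 13 of them at least 2-fold, with a median of 1.99, and 1 fell. IL1A (ENSG00000115008, chr2:112773915-112784590, minus strand), an alarm cytokine of the interleukin-1 family, was at 22, 23.1 and 19.4 CPM in WT and 637 and 689.6 CPM in WT LPS. Both WT LPS libraries stood far above the 3 WT libraries, and IL1A rose by 4.95 ± 0.07 (adjusted p = 2.01e-23). INHBA, which encodes the subunit of activin A, went from 6.76, 8.44 and 7.11 CPM to 99.8 and 104 CPM (log2 fold change 3.77 ± 0.08). EBI3 and IL23A, subunits of interleukins of the IL-12 family, rose by 3.69 ± 0.13 and 3.51 ± 0.20, with EBI3 at 195 and 164 CPM and IL23A at 22.7 and 15.3 CPM in WT LPS. IL12B, the shared subunit of IL-12 and IL-23, had 1 count in the WT libraries together and was at 1.59 and 1.001 CPM in WT LPS (adjusted p = 6e-07), and IL12A was not tested. TNF went from 6.32, 7.93 and 6.33 CPM to 37.2 and 30.6 CPM (log2 fold change 2.30 ± 0.13). IL15, TNFSF15 and CSF1, the growth factor of microglia, rose by 1.25 ± 0.13, 1.67 ± 0.08 and 1.06 ± 0.09. TNFSF14 was the only called member that was lower, from 29.8, 30.5 and 31 CPM to 9.83 and 10.01 CPM (log2 fold change -1.62 ± 0.10, adjusted p = 8.18e-12). IL36G had no count in WT and 36 counts in WT LPS, which is at least 7.36-fold higher against a floor of 3 counts per library.

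Mediators known to dampen inflammation went both ways. CD274, the ligand of the T cell checkpoint receptor PD-1, was at 29.3, 29.3 and 30.3 CPM in WT and 418 and 445 CPM in WT LPS. The 2 WT LPS libraries lay well above the 3 WT libraries (log2 fold change 3.86 ± 0.06). IL1RN, the natural antagonist of interleukin-1, went from 101, 110.4 and 97.4 CPM to 1153 and 1016 CPM (log2 fold change 3.40 ± 0.06), and SOCS3, an inhibitor of cytokine receptors, rose by 1.53 ± 0.09. SIGIRR, an inhibitory member of the interleukin-1 receptor family, and CD200R1, which receives a calming signal from neurons, fell, with log2 fold changes of -1.33 ± 0.28 and -1.04 ± 0.10. Over the whole list of anti-inflammatory mediators 12 of 24 were higher and 8 lower, with a median of 0.12, against 9 higher and 11 lower and a median of -0.17 on library size alone.

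Chemokines held many of the largest rises. Of 17 CC chemokines 15 were higher, 14 at least 2-fold, with a median of 4.27, and of 14 chemokines of the CXC list 11 were higher with a median of 2.97. CCL20 (ENSG00000115009, chr2:227805739-227817564, plus strand), which attracts cells that carry CCR6, was at 1.41, 1.65 and 1.34 CPM in WT and 245 and 221 CPM in WT LPS. The groups lay more than 2 orders of magnitude apart, and CCL20 rose by 7.31 ± 0.10 (adjusted p = 4.41e-24). CCL4, an attractant of monocytes and T cells, went from 9.62, 10.5 and 7.16 CPM to 945 and 806 CPM (log2 fold change 6.59 ± 0.11), and CCL5, another such attractant, from 10.97, 12.5 and 11.1 CPM to 204 and 181 CPM (log2 fold change 4.06 ± 0.08). CCL3 rose by 3.39 ± 0.13 and CCL22, a chemokine of dendritic cells, by 2.39 ± 0.08. CCL3, CCL4 and their near-identical copies CCL3L3 and CCL4L2 share reads, so the split between them is uncertain. CXCL1 (ENSG00000163739, chr4:73869393-73871242, plus strand), a neutrophil attractant, was at 29.8, 31.1 and 33.01 CPM in WT and 993 and 847 CPM in WT LPS. The WT LPS libraries were the 2 highest by a wide margin (log2 fold change 4.88 ± 0.08, adjusted p = 1.39e-18). CXCL5, CXCL3 and CXCL2, further neutrophil attractants, rose by 4.66 ± 0.10, 3.12 ± 0.14 and 2.83 ± 0.13. CCL15 and CXCL13 had no count in any WT library and were at least 17.1-fold and 9.41-fold higher against the floor. The interferon-type chemokines were low: CXCL10 was at 3.24, 1.85 and 0.257 CPM in WT and 10.9 and 10.7 CPM in WT LPS, with a spread of more than 10-fold among the WT libraries (log2 fold change 2.61 ± 0.49, adjusted p = 0.0018), and CXCL9 had 9 counts in each WT LPS library. CCL24, a ligand of CCR3, was lower (log2 fold change -0.73 ± 0.09), as was CX3CL1 (log2 fold change -1.22 ± 0.48).

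The receptors for such attractants were split. FPR2 and FPR1, receptors of bacterial formyl peptides, rose by 4.33 ± 0.08 and 2.87 ± 0.06, with FPR2 at 5.78, 5.301 and 4.53 CPM in WT and 104 and 106 CPM in WT LPS. Its groups did not overlap. CCR7, which guides dendritic cells to lymph nodes, went from 2.59, 2.98 and 1.802 CPM to 32.3 and 29.1 CPM (log2 fold change 3.64 ± 0.16). ACKR3, a scavenger of CXCL12, was near the counting limit in WT, at 0.216, 0.206 and 0.0515 CPM, and at 15.4 and 11.1 CPM in WT LPS (adjusted p = 1.03e-14). CXCR2, the receptor of CXCL1 and its kin, and CXCR3, the receptor of CXCL10, fell, with log2 fold changes of -1.73 ± 0.13 and -3.11 ± 0.32. In all 13 of 20 were higher and 4 lower, with a median of 0.51.

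Genes of co-stimulation and dendritic maturation rose in 16 of 20 cases, each at least 2-fold, with a median of 2.63. SLAMF7 (ENSG00000026751, chr1:160739057-160754821, plus strand), an adhesion receptor of immune cells, was at 39.5, 36.4 and 37.6 CPM in WT and 1212 and 1249 CPM in WT LPS. The groups lay far apart with little spread within each, and SLAMF7 rose by 5.02 ± 0.06 (adjusted p = 1.41e-24). LAMP3, a lysosomal protein of mature dendritic cells, went from 18.9, 19.9 and 12.9 CPM to 422 and 418 CPM (log2 fold change 4.61 ± 0.12). The ligands of the T cell receptor CD28 went opposite ways: CD80 rose from 9.67, 10.7 and 9.99 CPM to 65.9 and 76.5 CPM (log2 fold change 2.81 ± 0.09, adjusted p = 6.26e-17). CD86 was at 369, 349 and 348 CPM in WT and 228 and 245 CPM in WT LPS, without overlap, and fell by 0.59 ± 0.06 on the log2 scale (adjusted p = 1.04e-08). CD83 and CD40 rose by 2.69 ± 0.06 and 1.73 ± 0.06, and CD44, the receptor of hyaluronan, by 3.06 ± 0.04 (adjusted p = 1.76e-23). Beside these values, the summed level of 10 tested dendritic cell markers was 471 to 491 CPM in WT and 830 to 849 CPM in WT LPS. LAMP3 gained more CPM than the sum did, so the summed level of the other tested dendritic markers fell. XCR1 and CLEC4C were too low to test, and the dendritic markers CD1C, CLEC10A and FCER1A fell.

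Presentation on class I and class II changed less. Of 20 class I genes 10 were higher and 6 lower, none at least 2-fold, with a median of 0.23 that turned to -0.05 on library size alone. TAP1, the peptide transporter, and PSME2, an activator of the proteasome, rose by 0.93 ± 0.09 and 0.91 ± 0.07, whereas the immunoproteasome subunits PSMB8 and PSMB9 fell, with log2 fold changes of -0.47 ± 0.07 and -0.61 ± 0.10. Of 21 class II and CD1 genes 7 were higher and 10 lower, with a median of -0.08. On library size alone 5 were higher and 14 lower (median -0.37). Chains of HLA-DQ rose, HLA-DQA1 from 95.98, 87.8 and 87.7 CPM to 226 and 220.2 CPM (log2 fold change 1.30 ± 0.07), HLA-DQB1 by 1.08 ± 0.14 and HLA-DQA2 from 0.162, 0.206 and 0.257 CPM to 5.32 and 5.07 CPM (adjusted p = 3.56e-11). HLA-DRA, a chain of HLA-DR, rose by 0.90 ± 0.05, and HLA-DMB, which loads peptides on class II, went from 301, 283 and 292 CPM to 92.1 and 96.1 CPM (log2 fold change -1.63 ± 0.07, adjusted p = 2.68e-15). HLA genes differ between alleles and resemble each other, so reads may be split unevenly among them. CIITA, the master co-activator of class II genes, was at 151, 172 and 163 CPM in WT and 62.7 and 59.9 CPM in WT LPS. Both WT LPS libraries were lower than every WT library (log2 fold change -1.40 ± 0.07, adjusted p = 4.99e-14). CD1D, which presents lipids, was at 119, 124 and 128 CPM in WT and 19 and 17.6 CPM in WT LPS, without overlap, and fell by 2.75 ± 0.08 (adjusted p = 4.43e-18), and CD1E, CD1A and CD1C fell, with log2 fold changes of -1.70 ± 0.07, -1.51 ± 0.08 and -1.41 ± 0.07.

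Interferon-stimulated genes went the other way from the cytokines. Of 33 genes of the type I list 0 were higher and 29 were lower, 15 of them at least 2-fold, and the median was -0.97 against -0.07 for all genes. OAS1 (ENSG00000089127, chr12:112906777-112933222, plus strand), an enzyme that makes the activator of RNase L, was at 83.1, 92.9 and 77.8 CPM in WT and 25.5 and 23.8 CPM in WT LPS. Every WT library lay above both WT LPS libraries, and OAS1 fell by 1.78 ± 0.09 on the log2 scale (adjusted p = 2.52e-13). IFIT1, which binds viral RNA lacking a methylated cap, was at 64.7, 72.6 and 44.8 CPM in WT and 15.2 and 15.4 CPM in WT LPS. The WT libraries differed among themselves more than the WT LPS libraries did, and the groups did not overlap (log2 fold change -1.98 ± 0.20, adjusted p = 2.71e-05). MX2, an antiviral GTPase, went from 42.5, 59.1 and 40.2 CPM to 14.4 and 12.01 CPM (log2 fold change -1.84 ± 0.17, adjusted p = 2.45e-06), and ISG15, a ubiquitin-like protein, from 41.9, 58 and 44.6 CPM to 25.1 and 18.1 CPM (log2 fold change -1.16 ± 0.26, adjusted p = 0.00527). ISG20, IFIH1, OASL and RIGI were not called. The interferon regulatory factors IRF5 and IRF3 were lower (-1.24 ± 0.08 and -0.92 ± 0.11). STAT3, IFNGR2 and STAT4 were higher (1.21 ± 0.05, 1.79 ± 0.09 and 1.49 ± 0.07), and the list of interferon regulatory factors, JAKs and STATs counted 12 higher and 7 lower of 23, with a median of 0.29, but 9 and 11 on library size alone. IFNB1, interferon-beta itself, had 4 counts or fewer in each library.

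The promoters of 3 interferon-stimulated genes are shown because they hold the core of the interferon-stimulated response element, GAAA, any 2 bases and GAAA again, on either strand. This core stood in 2.98% of the 11305 promoters and in 17 of 24 promoters of the type I list. Capitals mark it in 100 bases on the strand of each gene, as overlapping copies in ISG15 and as a separated pair in IFIT1, and in OAS3 it overlaps a match to the E2F letters. The stretches are IFIT1 at chr10:89392475-89392574, plus strand, ISG15 at chr1:1013345-1013444, plus strand and OAS3 at chr12:112938374-112938473, plus strand.
IFIT1: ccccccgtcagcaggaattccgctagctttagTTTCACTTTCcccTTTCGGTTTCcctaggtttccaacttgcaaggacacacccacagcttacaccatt
ISG15: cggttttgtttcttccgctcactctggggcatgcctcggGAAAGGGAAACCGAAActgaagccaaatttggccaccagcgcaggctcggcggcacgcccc
OAS3: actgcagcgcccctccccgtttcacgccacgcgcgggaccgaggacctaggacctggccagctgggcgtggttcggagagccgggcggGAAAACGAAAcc

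Genes usually linked to interferon-gamma split. GBP1, a guanylate-binding protein that coats bacteria, was at 8.65, 10.3 and 9.32 CPM in WT and 138 and 131 CPM in WT LPS. Its groups lay far apart (log2 fold change 3.83 ± 0.08, adjusted p = 1.24e-20). GBP2, APOL3 and the adhesion molecules VCAM1 and ICAM1 rose by 2.68 ± 0.06, 2.11 ± 0.10, 3.09 ± 0.13 and 2.00 ± 0.07, while APOL4 and SECTM1 fell, with log2 fold changes of -2.26 ± 0.10 and -1.41 ± 0.13. Of 20 members 13 were higher and 6 lower, with a median of 0.70. Inflammasome genes were as mixed, with 8 higher and 9 lower of 18 and a median of -0.23, or 5 and 9 on library size alone. The inflammatory caspases rose, CASP5 from 3.46, 3.91 and 2.52 CPM to 71.5 and 82 CPM (log2 fold change 4.54 ± 0.13), CASP4 by 1.54 ± 0.07 and CASP1 by 1.16 ± 0.05. The sensor NLRP1, the adaptor PYCARD and the pore former GSDMD fell, with log2 fold changes of -1.44 ± 0.08, -1.14 ± 0.14 and -0.87 ± 0.15.

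**Figure D2:**
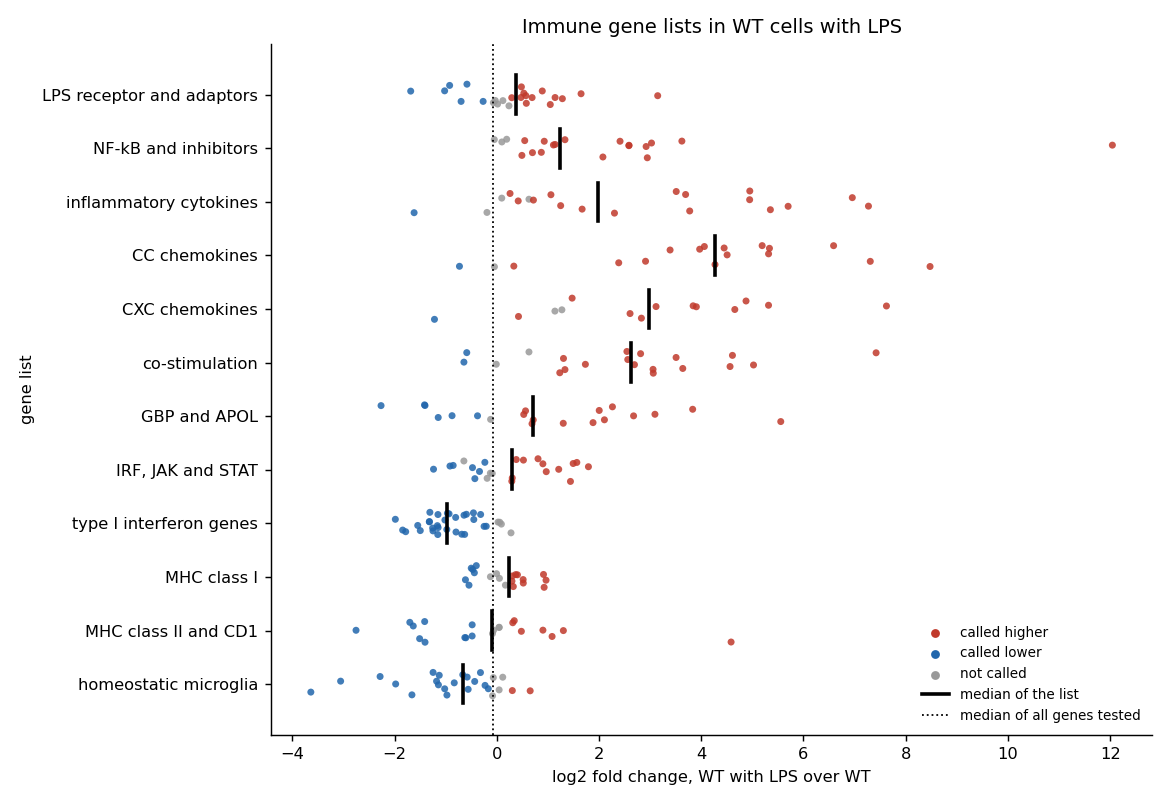
Log2 fold change (WT LPS against WT) of each tested member of 12 immune gene lists, with red for higher, blue for lower and grey for not called, a black bar for the list's median and a dotted line at the all-gene median of -0.07. Medians of the CC and CXC chemokine lists stand highest, and those of the type I interferon and homeostatic lists are the lowest.

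Genes that mark resting microglia fell in 19 of 25 cases, 10 at least 2-fold, and rose in 2, with a median of -0.66. SLCO2B1 (ENSG00000137491, chr11:75100563-75206549, plus strand), an organic anion transporter enriched in microglia, was at 1009, 1042 and 1070.3 CPM in WT and 220.0 and 208 CPM in WT LPS. The WT LPS libraries were the 2 lowest by a wide margin (log2 fold change -2.28 ± 0.05, adjusted p = 1.05e-19). CABLES1, a CDK-binding protein, went from 31.9, 31.8 and 31.5 CPM to 2.19 and 2.88 CPM (log2 fold change -3.64 ± 0.13, adjusted p = 1.39e-16). BIN1, a membrane-bending protein encoded at a risk locus for Alzheimer's disease, MERTK, a receptor for dying cells, and SELPLG, the ligand of selectins, fell, with log2 fold changes of -1.66 ± 0.17, -1.14 ± 0.07 and -1.18 ± 0.06. The list did not move as 1 block. TMEM119, a defining microglial marker, was at 27.2, 31.8 and 29.1 CPM in WT and 30.4 and 25.7 CPM in WT LPS. Its groups overlapped, and the log2 fold change -0.07 ± 0.09 was not called (adjusted p = 0.55), though on library size alone TMEM119 was called at -0.35. CSF1R, the receptor that microglia need to survive, was at 2117, 2119 and 2106 CPM in WT and 2046 and 1947 CPM in WT LPS and was not called (adjusted p = 0.129). C1QA, C1QB, C1QC and AIF1 were not called, while CX3CR1, the fractalkine receptor, rose by 0.30 ± 0.06, a call that was lost on library size alone, at 0.02.

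Genes linked to microglia around plaques moved apart from each other, with 11 of 24 higher, 10 lower and a median of 0.18 that became -0.11 on library size alone. LPL, a lipase, went from 239.9, 246 and 222 CPM to 1276 and 1334 CPM (log2 fold change 2.47 ± 0.05), SPP1, a secreted matrix protein, from 2639.8, 2905 and 2296 CPM to 8405 and 7848 CPM (log2 fold change 1.64 ± 0.08), and LGALS3, a galectin, rose by 1.11 ± 0.08. AXL, a receptor for apoptotic cells, was at 218, 231 and 223 CPM in WT and 74.7 and 69.1 CPM in WT LPS. Its groups did not overlap (log2 fold change -1.64 ± 0.06, adjusted p = 3.87e-16). CTSD, a lysosomal protease, fell by 1.12 ± 0.15, and APOE, the main lipid carrier of the brain, was at 5443, 5775 and 6268 CPM in WT and 3776 and 2767 CPM in WT LPS. Replicate 1 of WT LPS lay closer to the WT libraries than replicate 2, and APOE fell by 0.83 ± 0.27 on the log2 scale (adjusted p = 0.0298). The call for APOE was lost in 5 alternatives, at -0.63 without replicate 2 of WT LPS and -0.80 with a replicate block.

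Surface receptors for uptake fell more often than they rose, with 16 lower and 10 higher of 29 and a median of -0.28. LRP1, a large scavenger receptor, STAB1, COLEC12 and the engulfment adaptor ELMO1 fell, with log2 fold changes of -1.22 ± 0.08, -1.30 ± 0.10, -1.66 ± 0.06 and -1.45 ± 0.07. CLEC4E, a receptor for mycobacterial glycolipid, was at 0.973, 0.823 and 0.618 CPM in WT and 46.5 and 45.3 CPM in WT LPS. The gene was close to absent in WT, and CLEC4E rose by 5.82 ± 0.15. MARCO, a scavenger receptor for bacteria, rose by 1.29 ± 0.10. Among Fc receptors and leukocyte immunoglobulin-like receptors 10 of 21 were higher and 9 lower, with a median of 0.21 that was negative on library size alone. LILRB2, LILRA5 and LILRB1 rose by 2.87 ± 0.05, 2.61 ± 0.06 and 2.38 ± 0.07, although near-identical members of this family can share reads. INPP5D, the lipid phosphatase SHIP1, was at 332, 349 and 335 CPM in WT and 97.7 and 89.1 CPM in WT LPS. It fell by 1.86 ± 0.06 without overlap. Complement genes showed 7 higher, 8 lower and 8 not called of 23 (median -0.06), but 5 higher and 13 lower on library size alone. Their shares, 30.4% higher and 34.8% lower, were near those of all genes, 28.9% and 30.8%. The receptor C3AR1 and the regulator CD55 were up by 1.30 ± 0.05 and 1.31 ± 0.08, and C5 and C5AR2 were down, at -1.46 ± 0.17 and -1.26 ± 0.11. Lysosomal genes fell in 20 of 34 cases, but only 2 at least 2-fold, with a median of -0.22 (26 lower on library size alone), and the proton pump subunit ATP6V1A rose by 1.20 ± 0.06.

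Transcription factors of the myeloid lineage were divided, with 14 higher and 13 lower of 33 and a median of 0.13 that turned to -0.16 on library size alone. CEBPA (ENSG00000245848, chr19:33299934-33302564, minus strand), a factor that sets up myeloid cells, was at 34.6, 35.97 and 41.2 CPM in WT and 4.78 and 4.63 CPM in WT LPS. Both WT LPS libraries were lower than every WT library, and CEBPA fell by 2.98 ± 0.19 (adjusted p = 3.38e-09). ID3, an inhibitor of basic helix-loop-helix factors, was at 101 ± 1.58 CPM in WT (SD, n = 3) and 22.6 ± 2.97 CPM in WT LPS (SD, n = 2) (log2 fold change -2.17 ± 0.09). MEF2C, the gene knocked out elsewhere in the study, fell by 1.86 ± 0.06 in these unedited cells, and its relatives MEF2A and MEF2D fell less, with log2 fold changes of -0.34 ± 0.06 and -0.33 ± 0.08. KLF6 rose by 1.68 ± 0.05, and BATF, a partner of IRF4 and IRF8, by 2.52 ± 0.25. SPI1 and IRF8, which macrophages depend on, were not called at 0.24 ± 0.19 and -0.09 ± 0.06, and neither was CEBPB at 0.44 ± 0.34, while on library size alone IRF8 was called at -0.37.

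Immediate early genes did not move as a class: 11 of 23 were higher and 7 lower, with a median of 0.21 that became -0.08 on library size alone. FOS, a component of AP-1, was at 689, 615 and 599 CPM in WT and 256 and 205 CPM in WT LPS. Every WT library was well above the LPS-treated pair, and FOS fell by 1.46 ± 0.14 (adjusted p = 9.91e-06). FOSB, EGR1, EGR3 and NR4A1 fell, with log2 fold changes of -2.46 ± 0.22, -1.33 ± 0.16, -1.49 ± 0.12 and -1.10 ± 0.12. FOSL2, another AP-1 member, went from 67.4, 71.8 and 73.5 CPM to 308 and 295 CPM (log2 fold change 2.09 ± 0.08), and MAFF, NR4A3 and MYC rose by 2.52 ± 0.15, 2.22 ± 0.13 and 1.96 ± 0.12. Of feedback regulators 15 of 25 were higher and 4 lower, with a median of 0.51. ZC3H12A, an RNase that cuts cytokine messages, was at 41.1, 42.4 and 45.5 CPM in WT and 298 and 239.9 CPM in WT LPS. Its groups did not overlap (log2 fold change 2.64 ± 0.16). ZFP36L2, which promotes decay of messages with AU-rich elements, went from 551, 566 and 583 CPM to 144 and 134 CPM (log2 fold change -2.02 ± 0.13, adjusted p = 2.86e-07).

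Host transcripts of microRNAs were measured as part of the gene table, although mature microRNAs were not. Of 13 tested hosts 8 were higher and 2 lower, with a median of 0.52. MIR155HG was at 1.24, 1.08 and 1.24 CPM in WT and 14.1 and 15.6 CPM in WT LPS, and MIR3142HG, which holds the miR-146a gene, was at 3.78, 3.91 and 4.07 CPM in WT and 37.1 and 37.6 CPM in WT LPS. In both cases the WT LPS libraries were the highest, with rises of 3.64 ± 0.17 and 3.25 ± 0.12. MIR210HG and MIR22HG rose by 2.98 ± 0.24 and 1.41 ± 0.09. Their mature microRNAs, from RefSeq (GRCh38.p14), are shown because these hosts were the ones of the 13 that rose at least 2-fold, and capitals mark the seed, bases 2 to 8. The loci are chr21:25573983-25574006, plus strand for miR-155-5p, chr5:160485372-160485393, plus strand for miR-146a-5p, chr11:568112-568133, minus strand for miR-210-3p and chr17:1713914-1713935, minus strand for miR-22-3p. No pair of the 4 shares a seed.
hsa-miR-155-5p: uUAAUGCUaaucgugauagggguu
hsa-miR-146a-5p: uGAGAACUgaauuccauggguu
hsa-miR-210-3p: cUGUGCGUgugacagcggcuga
hsa-miR-22-3p: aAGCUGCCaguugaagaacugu

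Enzymes of NAD, kynurenine and pterin metabolism were among the strongest responders outside immunity. Of 19 members 13 were higher, 12 at least 2-fold, and 3 lower, with a median of 1.75. NAMPT (ENSG00000105835, chr7:106248285-106286326, minus strand), the rate-limiting enzyme of NAD salvage, was at 42.5, 39.8 and 39.7 CPM in WT and 1723 and 1838 CPM in WT LPS. The groups lay far apart, with close values within each (log2 fold change 5.45 ± 0.06, adjusted p = 1.19e-25). A pair of enzymes that make NAD from other precursors fell, QPRT of the pathway from tryptophan from 74.9, 71.5 and 79.3 CPM to 22.5 and 20.6 CPM (log2 fold change -1.80 ± 0.08, adjusted p = 7.98e-15) and NAPRT, which uses nicotinic acid, with a log2 fold change of -1.43 ± 0.36, a call that was lost without replicate 2 of WT LPS. Upstream on the kynurenine route, IDO1 went from 0.594, 0.309 and 0.309 CPM to 21.2 and 17.3 CPM (log2 fold change 5.56 ± 0.24), KYNU was at 614 and 647 CPM in WT LPS (log2 fold change 3.23 ± 0.06), and TDO2 and KMO rose by 4.02 ± 0.15 and 2.15 ± 0.07. HAAO, which makes the substrate of QPRT, fell by 0.65 ± 0.14. GCH1, the first enzyme of tetrahydrobiopterin synthesis, rose by 4.72 ± 0.08, whereas NOS2, which uses that cofactor, had no count in any of the 5 libraries.

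The 2 cyclooxygenases, which make the precursor of prostaglandins, went opposite ways. PTGS2, the inducible cyclooxygenase, was at 17.1, 16.9 and 12.7 CPM in WT and 159.9 and 154 CPM in WT LPS, and PTGS1, the constitutive one, was at 462, 471 and 477 CPM in WT and 214 and 208 CPM in WT LPS. The WT LPS libraries were the highest for PTGS2 and the lowest for PTGS1, with changes of 3.34 ± 0.09 and -1.16 ± 0.05. PTGES, which makes prostaglandin E2, and its receptors PTGER2 and PTGER4 rose by 2.68 ± 0.17, 2.31 ± 0.09 and 2.24 ± 0.08, while HPGDS, which makes prostaglandin D2, fell by 1.60 ± 0.08. Of leukotriene genes on the list, falls were called for ALOX5, which starts leukotriene synthesis, at -1.12 ± 0.06 and for the receptors CYSLTR1, CYSLTR2 and LTB4R at -1.97 ± 0.08, -1.49 ± 0.15 and -1.47 ± 0.11. The list counted 9 higher and 11 lower of 21, with a median of -0.36.

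Receptors of metabolites rose in 11 of 19 cases and fell in 7 (median 0.51). HCAR2 and HCAR3, receptors of hydroxy acids, went from 0.108, 0.463 and 0.772 CPM to 27.8 and 23.2 CPM and from 0.216, 0.309 and 0.412 CPM to 18.5 and 18.1 CPM (log2 fold change 5.79 ± 0.24 and 5.83 ± 0.27). These 2 genes are near-identical, so reads may be split between them. GPR84, a receptor of medium-chain fatty acids, was at 53.6, 56.9 and 51.6 CPM in WT and 462 and 405 CPM in WT LPS. It rose by 3.00 ± 0.06 with no overlap. S1PR1, LPAR5 and LPAR6, receptors of lysophospholipids, fell, with log2 fold changes of -1.13 ± 0.09, -1.45 ± 0.11 and -1.20 ± 0.08. Among purinergic genes 7 of 22 were higher and 10 lower, with a median of -0.42. The ATP-gated channels P2RX7 and P2RX4 rose by 1.91 ± 0.06 and 1.21 ± 0.06, and the adenosine receptors ADORA3, ADORA1 and ADORA2B fell, with log2 fold changes of -1.98 ± 0.12, -1.41 ± 0.16 and -1.27 ± 0.20. ADORA2A had 3 counts in the WT libraries together and was at 1.73 and 1.56 CPM in WT LPS.

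Glycolytic genes rose in 23 of 34 cases, 11 at least 2-fold, and fell in 5 (median 0.70), or 18 and 10 on library size alone. HIF1A, the hypoxia-inducible factor, was at 468, 447 and 439 CPM in WT and 1209 and 1286 CPM in WT LPS. All WT libraries lay well below the LPS-treated pair (log2 fold change 1.47 ± 0.05). The sugar transporters SLC2A6 and SLC2A3 rose by 3.48 ± 0.18 and 2.17 ± 0.06, and LDHA, HK2 and PFKFB3, which drive glycolysis, by 1.32 ± 0.05, 1.22 ± 0.05 and 1.85 ± 0.06. HK3, another hexokinase, fell by 0.97 ± 0.08, and LDHB was not called at 0.01 ± 0.06. The tricarboxylic acid cycle and its entry were mixed, with 8 higher, 11 lower and 14 not called of 33 (median -0.08), but 6 higher and 24 lower on library size alone (median -0.37). The shares of 24.2% higher and 33.3% lower were near the 28.9% and 30.8% of all genes. PDK2, which like PDK4 blocks pyruvate dehydrogenase, fell by 1.61 ± 0.13, and PDHX and DLD, parts of that complex, rose by 1.22 ± 0.07 and 0.90 ± 0.06. IDH1 and IDH2 fell, with log2 fold changes of -1.09 ± 0.06 and -1.24 ± 0.08, while ACO1, which also senses iron, rose by 1.25 ± 0.07. Nuclear genes of the respiratory chain counted 10 higher and 9 lower of 31 with a median of 0.00, or -0.29 on library size alone. Of 13 mitochondrially encoded transcripts 9 were higher (median 0.30), yet none was called on library size alone.

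Lipid genes depended on the scaling. For cholesterol and fatty acid synthesis 12 of 31 were higher and 10 lower (median -0.05), but 7 higher and 16 lower on library size alone (median -0.33). HMGCS1 and LSS, early and middle steps of sterol synthesis, rose by 1.48 ± 0.07 and 1.48 ± 0.08, and SCD, which desaturates fatty acids, was at 1475, 1472 and 1458 CPM in WT and 764 and 797 CPM in WT LPS. The LPS-treated pair lay below all WT libraries, and SCD fell by 0.91 ± 0.05. Among genes of lipid efflux 7 were higher and 7 lower of 21 (median -0.08), against 7 higher and 14 lower on library size alone. The share of 33.3% each way was near the 28.9% higher and 30.8% lower of all genes. The exporters ABCA1 and ABCG1 moved oppositely, at 1.15 ± 0.06 and -1.15 ± 0.07, and CH25H, which makes an oxysterol, rose by 2.78 ± 0.14.

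Iron and zinc genes rose in 15 of 20 cases, 11 at least 2-fold, with a median of 1.19, and 1 fell. TFRC (ENSG00000072274, chr3:196027183-196082189, minus strand), which imports transferrin-bound iron, was at 174, 175 and 172 CPM in WT and 2160.0 and 2512 CPM in WT LPS. The exporter SLC40A1, ferroportin (ENSG00000138449, chr2:189560579-189583758, minus strand), was at 74.3, 70.9 and 71.8 CPM in WT and 10.1 and 13.01 CPM in WT LPS. Groups did not overlap in either, and the importer rose by 3.75 ± 0.06 (adjusted p = 6.77e-23) while the exporter fell by 2.64 ± 0.10 (adjusted p = 3.71e-16). HAMP, hepcidin, the hormone that removes ferroportin, went from 38.4, 33.4 and 38.1 CPM to 329 and 253 CPM (log2 fold change 2.99 ± 0.11). SLC39A8, a zinc and manganese importer, rose by 4.10 ± 0.06, and STEAP4, a metal reductase, rose from 4.59, 4.01 and 4.58 CPM to 64.9 and 75.99 CPM (adjusted p = 1.28e-18). FTH1, the heavy chain of ferritin, was at 458, 539 and 544 CPM in WT and 1861 and 1109 CPM in WT LPS. Replicate 1 of WT LPS stood well above replicate 2, and FTH1 rose by 1.53 ± 0.41 (adjusted p = 0.0141).

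Oxidative defence genes rose in 18 of 26 cases (median 0.48). SLC7A11, the cystine importer, went from 37.99, 36.4 and 31.3 CPM to 395 and 459 CPM (log2 fold change 3.60 ± 0.08), and NFE2L2, the transcription factor NRF2, from 88.6, 89.1 and 89.6 CPM to 356 and 359 CPM (log2 fold change 2.00 ± 0.06). TXN and TXNRD1, thioredoxin and its reductase, rose by 2.26 ± 0.06 and 1.39 ± 0.05, whereas CAT, catalase, and GPX1, which also remove peroxide, fell, with log2 fold changes of -1.36 ± 0.06 and -1.14 ± 0.21. Genes of ATF4 and the unfolded protein response rose in 19 of 26 cases and fell in 4 (median 0.76), led by ASNS and MTHFD2 of amino acid and folate metabolism (1.97 ± 0.09 and 1.89 ± 0.05). HSPA5, the main chaperone of the endoplasmic reticulum, rose by 0.35 ± 0.05, HERPUD1 fell by 0.49 ± 0.06, and DDIT3 was not called at 0.30 ± 0.16. Amino acid transporters were higher in 14 and lower in 6 of 22 cases (median 0.59). The glutamate importers SLC1A3 and SLC1A2 rose by 3.11 ± 0.07 and 3.70 ± 0.18, with SLC1A3 at 33.6, 38.5 and 35.6 CPM in WT and 306 and 315 CPM in WT LPS. Its groups did not overlap, and SLC7A8, an importer of large neutral amino acids, fell by 2.28 ± 0.07. SLC1A3 is also a marker of astrocytes and is among the 5 tested neural and pluripotency markers. These summed to 184 to 196 CPM in WT and 375 to 378 CPM in WT LPS, where most of the sum was SLC1A3. SLC1A3 gained more CPM than the sum did, so the summed level of the other tested markers fell. By gene, 3 of the 5 were higher and 1 was lower, while GFAP and AQP4 were too low to test.

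**Figure D3:**
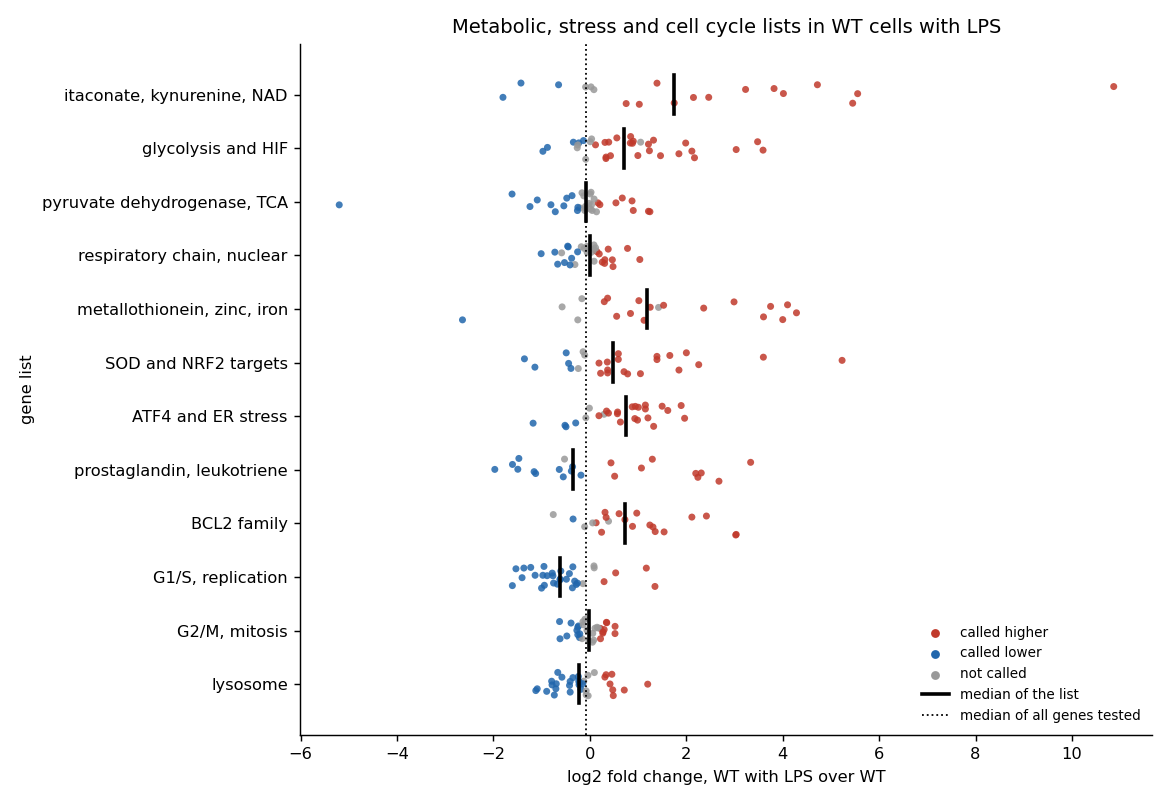
Log2 fold change (WT LPS against WT) of each tested member of 12 lists of metabolism, stress, survival, cell cycle and lysosome, drawn with the same colours, bars and dotted line as the plot of immune lists. The itaconate, kynurenine and NAD list and the metal list have the highest medians (1.75 and 1.19), and the G1/S list has the lowest (-0.62).

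Cell cycle genes of the entry to S phase mostly fell, and those of mitosis were called higher or lower about as often as all genes. Of 32 genes of G1/S and DNA replication 25 were lower, 7 at least 2-fold, and 4 higher, with a median of -0.62. MCM2 (ENSG00000073111, chr3:127598223-127622436, plus strand), part of the replicative helicase, was at 63.1, 63.7 and 66.1 CPM in WT and 23.4 and 21.1 CPM in WT LPS. The WT LPS libraries were the 2 lowest, without overlap (log2 fold change -1.53 ± 0.08, adjusted p = 1.86e-13). CDT1, which loads that helicase, and E2F1, which drives S phase genes, fell, with log2 fold changes of -1.61 ± 0.15 and -1.41 ± 0.11. The 4 that rose were CCND1, CDK6, CDK4 and CDK2, cyclin and kinases of G1, with 1.35 ± 0.08 for CCND1 and 1.17 ± 0.08 for CDK6. Of 31 genes of G2 and mitosis 9 were higher, 10 lower and 12 not called, none moved 2-fold, and the median was -0.02, or 0.01 with RLE size factors and -0.31 on library size alone. CDK1, the mitotic kinase, was at 95.8, 87.8 and 82.2 CPM in WT and 122 and 133 CPM in WT LPS and rose by 0.52 ± 0.07, while MKI67, the Ki-67 antigen, was at 384, 399 and 371 CPM in WT and 286 and 367 CPM in WT LPS and fell by 0.24 ± 0.08. Replicate 1 of WT LPS held the lowest MKI67 of the 5 libraries, and replicate 2 lay just under the lowest WT library. Without replicate 1 of WT LPS the log2 fold change of MKI67 was -0.07 and not called. Targets of p53 showed 9 higher, 8 lower and 8 not called of 25 (median -0.11), but 7 higher and 15 lower on library size alone (median -0.39), with CDKN1A, the CDK inhibitor p21, up by 1.11 ± 0.06 and FDXR down, at -1.95 ± 0.18. Of 21 genes of the BCL2 family and inhibitors of cell death 16 were higher and 1 lower (median 0.73). BCL2A1 went from 31.99, 31.5 and 28.3 CPM to 246 and 256 CPM (log2 fold change 3.04 ± 0.06), and BIRC3, an inhibitor of apoptosis, from 15.1, 14.6 and 13.7 CPM to 109.8 and 126 CPM (log2 fold change 3.03 ± 0.09).

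Promoters of 3 replication genes are shown because they hold letters that E2F factors are known to bind, TTTCCCGC or TTTGGCGC on either strand. These stood in 3.55% of the 11305 promoters, in 13 of 25 of the G1/S list and in 2 of 26 of the G2/M list. Capitals mark the match within 100 bases on the strand of the gene. The stretches are E2F1 at chr20:33686386-33686485, minus strand, CDT1 at chr16:88803689-88803788, plus strand and MCM6 at chr2:135876479-135876578, minus strand, and MCM6 fell by 0.94 ± 0.07 on the log2 scale.
E2F1: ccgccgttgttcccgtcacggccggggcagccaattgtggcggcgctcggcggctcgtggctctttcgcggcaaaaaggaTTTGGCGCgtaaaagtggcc
CDT1: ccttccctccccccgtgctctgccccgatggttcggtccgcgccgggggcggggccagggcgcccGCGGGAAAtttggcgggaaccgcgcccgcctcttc
MCM6: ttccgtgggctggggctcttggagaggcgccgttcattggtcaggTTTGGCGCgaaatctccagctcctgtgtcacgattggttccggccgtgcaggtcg

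**Figure D4:**
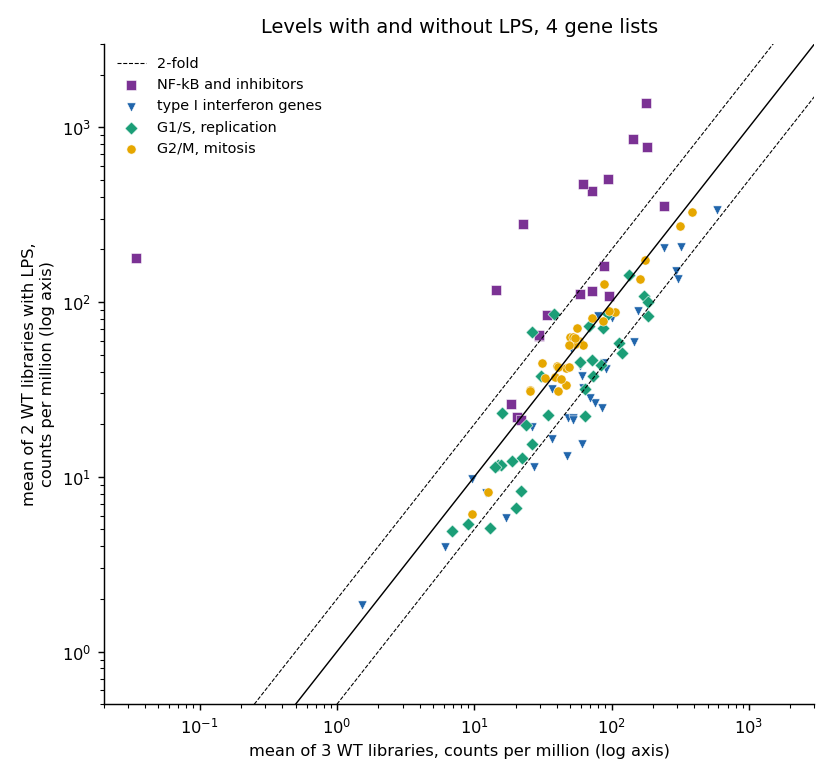
Mean CPM in WT (horizontal) and in WT LPS (vertical), both on log axes, for members of the NF-kB, type I interferon, G1/S and G2/M lists, with a solid line of equal level and dashed lines of 2-fold difference. Members of the NF-kB list lie mostly above the lines, those of the type I interferon list mostly below, and those of the G2/M list between the dashed lines.

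Matrix, hyaluronan and protease genes rose in 23 of 32 cases, 17 at least 2-fold, and fell in 5 (median 1.02). THBS1, thrombospondin 1, was at 169, 159 and 152 CPM in WT and 1640.0 and 1674 CPM in WT LPS. Both WT LPS libraries stood far above the WT libraries (log2 fold change 3.37 ± 0.05, adjusted p = 4.61e-23). PTX3, a soluble pattern receptor, and TNFAIP6, which cross-links hyaluronan, were among the largest rises of all (8.39 ± 0.16 and 8.35 ± 0.10). VCAN, a proteoglycan that is also a monocyte marker, went from 2.54, 4.12 and 3.14 CPM to 171 and 204 CPM (log2 fold change 5.84 ± 0.13). Beside it the monocyte markers S100A12, S100A8 and S100A9 rose by 4.42 ± 0.31, 2.48 ± 0.09 and 2.41 ± 0.06, while FCN1 fell by 1.09 ± 0.08 and CD14 and LYZ were not called. The whole list of 18 monocyte and border macrophage markers was evenly split, with 7 higher and 7 lower, 5 each way at least 2-fold, and a median of 0.10. PLAUR, the urokinase receptor, rose by 1.87 ± 0.06 and its ligand PLAU fell by 1.13 ± 0.08. FN1, fibronectin, was at 8858, 9167 and 8571 CPM in WT and 6037 and 6614 CPM in WT LPS. It fell by 0.49 ± 0.05 and was among the largest losses in CPM. Of 27 adhesion genes 10 were higher and 11 lower (median -0.04), or 9 and 14 on library size alone. ITGB8, which activates TGF-beta, went from 1.08, 0.978 and 0.824 CPM to 59.7 and 57.6 CPM (log2 fold change 5.92 ± 0.15), and ITGA1 rose by 3.49 ± 0.10. PECAM1 fell by 1.16 ± 0.06, and with it the summed level of 13 mesenchymal and endothelial markers, from 543 to 559 CPM in WT to 244 to 269 CPM in WT LPS. In TGF-beta signalling 12 of 30 were higher and 8 lower (median 0.07), but 10 and 14 on library size alone (median -0.21), and TGFB1 and the inhibitors SMAD6 and SMAD7 fell, with log2 fold changes of -0.83 ± 0.23, -1.38 ± 0.12 and -0.63 ± 0.06.

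Some of the largest changes lay outside the lists. LAD1, ladinin 1, was at 0.216, 0.360 and 0.0515 CPM in WT and 40.2 and 34.1 CPM in WT LPS, and HSD11B1, which regenerates cortisol from cortisone, was at 0.108, 0.154 and 0 CPM in WT and 11.8 and 14.6 CPM in WT LPS. Both lay near or under the counting limit of 0.154 to 0.199 CPM in WT, so no fold is given, and both rose (adjusted p = 4.23e-17 and adjusted p = 1.14e-12). KIF26B, an atypical kinesin, was at 139, 146 and 146 CPM in WT and 5.05 and 4.38 CPM in WT LPS. It fell by 4.93 ± 0.11, and SUSD3, LINGO3 and TMEM37 fell, with log2 fold changes of -3.41 ± 0.10, -3.39 ± 0.48 and -4.14 ± 0.36. Of 1736 long non-coding RNA genes tested, 152 rose and 275 fell at least 2-fold, against 1090 and 1489 of 13114 protein-coding genes. MIR3945HG, MAGI2-AS3, PRKAG2-AS2 and SLC30A4-AS1 rose by 5.32 ± 0.26, 4.30 ± 0.20, 4.25 ± 0.14 and 4.18 ± 0.21. PTPRN2-AS1 was at 77.2, 79.1 and 79.8 CPM in WT and 7.91 and 10.1 CPM in WT LPS. It fell by 3.13 ± 0.10, and LINC02898, LINC02975, LINC02701, ANXA2R-AS1 and PRADX fell, with log2 fold changes of -3.30 ± 0.19, -3.11 ± 0.34, -2.49 ± 0.22, -2.36 ± 0.30 and -2.22 ± 0.26. The sources used here do not say whether counting used strand, so reads of an antisense gene and its partner cannot be told apart. No count in any WT library was found for 19 genes that rose at least 2-fold, and none in either WT LPS library for 11 that fell. Genes with 1 to 3 counts in WT are given by level: C1QTNF1 had 3 counts in WT and was at 9.37 and 10.9 CPM in WT LPS, and ETV3L had 1 count and was at 6.98 and 5.504 CPM.

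Of 28 genes often used as controls 18 were higher and 6 lower, with a median of 0.34, but on library size alone 11 were higher and 10 lower, with a median of 0.05. ACTB, beta-actin, was at 5098, 5345 and 5318 CPM in WT and 10775 and 9065 CPM in WT LPS. Its rise was 0.92 ± 0.07, that of GAPDH 0.43 ± 0.05 and that of YWHAZ 0.97 ± 0.05. Of 35 ribosomal protein genes 19 were higher and 1 lower (median 0.14), but 0 higher and 18 lower on library size alone, so their direction depends on the scaling.

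The same treatment was given to MEF2C KO cells. Their group means come from other libraries than those compared above. The filter, the scaling and the estimate of the spread used all 12 libraries, so the tests are not independent. Over all genes, by the interaction term of the edgeR fit, the log2 change on LPS was larger in KO cells for 1028 genes (6.42%) and smaller for 892 (5.57%), which together is 12%. In counts over all genes, larger means more positive and smaller more negative. A weaker fall in KO thus counts as larger, and the counts do not say in which cells the response was stronger. Of the 288 genes that the naming rule picks, 135 differed, 103 of them by less than 2-fold and 32 by 2-fold or more. The named genes were mostly picked for a large change in WT cells, which in part sets the direction, so the next counts are a description. Of those that differed, 59 of 68 rises and 65 of 67 falls were weaker in KO cells or, for 2 genes, of the opposite fitted sign. CCR7 rose less in KO, from a mean of 1.32 to 4.399 CPM against 2.46 to 30.7 CPM in WT, a difference of -1.90 ± 0.31 on the log2 scale. A smaller fold did not always go with a lower level: VCAN, CCL2 and FPR2 had higher means in untreated KO cells than in WT cells, a difference in untreated level that was not tested here. CCL2 went from 411 to 2642 CPM in KO and from 67.2 to 1465 CPM in WT (difference in log2 change -1.76 ± 0.09), and FPR2 from 25.9 to 173 CPM and from 5.205 to 105 CPM (-1.59 ± 0.12). VCAN went from 10.2 to 162 CPM in KO and 3.27 to 188 CPM in WT (-1.84 ± 0.19), and KLF4 and SPRY4 likewise started higher in KO, at 15.04 to 16.5 CPM and 7.85 to 13.6 CPM against 5.29 to 15.3 CPM and 2.45 to 9.18 CPM. HSD11B1 went from 0.259 to 3.38 CPM in KO and 0.0875 to 13.2 CPM in WT, where the untreated levels are near or under the counting limit, so its difference of -3.51 ± 0.85 is not ranked. BIRC3 was the only one of the 32 whose fold rise was larger in KO (1.35 ± 0.14), from 4.83 to 101 CPM in KO and 14.5 to 118 CPM in WT. Of genes that fell in WT, FOSB went from 11.4 to 2.07 CPM in WT and from 2.27 to 2.19 CPM in KO, where the untreated mean was already near the level with LPS (2.43 ± 0.36). KIF26B went from 143 to 4.71 CPM in WT and 67.9 to 7.67 CPM in KO (1.78 ± 0.17), and CEBPA, with untreated means close to each other, from 37.3 to 4.71 CPM and 37.1 to 10.9 CPM (1.21 ± 0.26). The count of the interaction over all genes rests on single libraries: it was 1648 larger and 1431 smaller without replicate 1 of KO LPS, 594 and 568 without replicate 2 of KO LPS, and 632 and 580 without replicate 2 of WT LPS. For IL1A and CCL20 no difference was called, at 0.06 ± 0.10 and 0.53 ± 0.21, while NAMPT and OAS1 differed by -0.49 ± 0.07 and 0.77 ± 0.12.

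**Figure D5:**
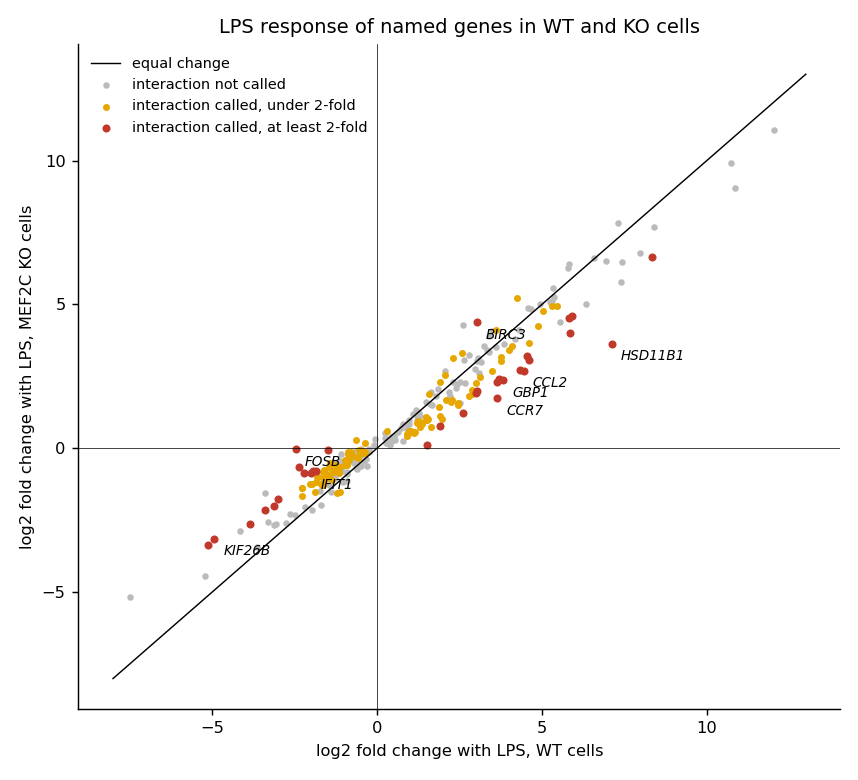
Log2 fold change on LPS in WT cells (horizontal) and in MEF2C KO cells (vertical) for the 288 named genes, with a line of equal change, grey for genes whose responses were not called different, orange for those called with under 2-fold difference and red for those with at least 2-fold. The 32 red points include CCR7, VCAN and HSD11B1 (the last with untreated levels near the counting limit) below the line and FOSB, KIF26B and CEBPA above it.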

How the data were processed

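The authors deposited a table of raw read counts per Ensembl gene for 12 libraries, in whole numbers with no scaling, per the file headers. TRIzol served for extraction and the NEBNext Ultra RNA kit for the libraries, per the labels' protocols. GRCh38, CASAVA 1.7 and Cufflinks stand in the submitters' processing notes without a role. Aligner, counter, annotation and strand setting: not given in the sources used here. Samples were grouped by their titles and treatment labels, and no column lacked a sample.

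Counts were fitted with edgeR 4.0.16 (limma 3.58.1, R 4.3.3) over all genes and all 12 libraries, which share 1 estimate of the spread, with TMM scaling and filterByExpr (16022 genes left), by robust quasi-likelihood F tests, 2-sided, with Benjamini-Hochberg adjustment over all tested genes. A gene was called at an adjusted p under 0.05. The 4628 higher and 4932 lower calls are those of this fit. CPM uses the scaled library sizes. A standard error is the log2 fold change over the root of its F. The interaction is the LPS change in KO minus that in WT. The fit was tested on simulated data. Symbols matched for 57388 of 57992 gene IDs in GENCODE release 29 (GRCh38), which gave positions and biotypes. The members and lists were chosen with earlier results of these data known.

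Genes were named by a rule: the 10 largest rises and falls, and the same for 5 long non-coding RNAs, without overlap and with a group mean of at least 5 CPM; the 5 largest gains and losses in CPM; of each list up to 3 called members per direction; and a fixed panel. Other members of a list are named with their values.

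Alternatives were DESeq2 1.42.0, RLE size factors, library size alone, 13 reference genes, no filter, a minimum of 1 CPM, a test beyond 2-fold (glmTreat), only the 5 WT libraries, a replicate block and leaving out each library.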

Additional observations from a re-analysis of the deposited data

Results flagged for a closer look

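The change on LPS differed between MEF2C KO and WT cells by at least 2-fold, by the interaction term of the edgeR fit with an adjusted p under 0.05, in 32 of the 288 named genes. All values below are log2 changes in KO minus those in WT. A smaller rise or fall is one of the fold, and levels can go the other way. Untreated means were higher in KO than in WT for every gene with a smaller rise except CCR7. With LPS, means of CCL2, FPR2, KLF4 and SPRY4 were higher in KO too. MX2 and IFIT1, which fell less, were at 141 and 174 CPM in untreated KO and 80.9 and 95.8 CPM in KO with LPS. In WT they were at 47.3 and 60.7 CPM untreated and 13.2 and 15.3 CPM with LPS. The untreated mean of FOSB was lower in KO. These differences in level were not tested. The group means of the WT and KO comparisons come from different libraries, but filter, scaling and the estimate of the spread used all 12.

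Cytokine and chemokine genes with a smaller rise in KO were CCL2 (-1.76) and IL10 (-1.05). Receptors with a smaller rise were CCR7 (-1.90), FPR2 (-1.59), LILRA5 (-1.39), CLEC4D (-1.54) and CLEC4E (-1.29). CLEC4D is the least firm of these, with an adjusted p of 0.0374 for the interaction and untreated means of 0.518 CPM in KO and 0.278 CPM in WT. Matrix and adhesion genes with a smaller rise were VCAN (-1.84), TNFAIP6 (-1.70) and ITGB8 (-1.32). The others that rose less were HSD11B1 (-3.51, with untreated levels near or under the counting limit), GBP1 (-1.47), the transcription factor KLF4 (-1.40), the microRNA host MIR155HG (-1.34), CASP5 (-1.33), the glutamate importer SLC1A2 (-1.29), the feedback inhibitor SPRY4 (-1.11) and the survival gene BCL2A1 (-1.04). KLF4 hardly changed in KO, with a log2 change of 0.13 ± 0.15. BIRC3 rose more in KO (1.35).

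Of genes that fell in WT and fell less or hardly changed in KO, 2 were interferon-stimulated, MX2 (1.04) and IFIT1 (1.12). Transcription factors among them were FOSB (2.43), EGR3 (1.42) and CEBPA (1.21). In KO itself FOSB and EGR3 hardly changed, with log2 changes of -0.03 ± 0.27 and -0.07 ± 0.11. The others with a protein product were KIF26B (1.78), PRR15 (1.76), SUSD3 (1.27), TNFRSF25 (1.22) and FDXR (1.16), and the non-coding ones were ANXA2R-AS1 (1.69), PRADX (1.36) and PTPRN2-AS1 (1.14). All 32 kept their sign under the 17 alternatives run for them. They were picked for a difference of at least 2-fold in these same libraries, so a change of sign was hardly possible. The call of CLEC4D was lost with DESeq2, with a replicate block, and without replicate 1 or 2 of WT or replicate 1 or 3 of KO. That of IFIT1 was lost without replicate 1 of KO, and that of HSD11B1 without replicate 2 or 3 of KO. Without replicate 2 of WT LPS 25 stayed under the threshold, and without replicate 2 of KO LPS 27 did.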

How the results depend on the processing

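Of 3226 calls of at least 2-fold between WT LPS and WT (2825 to 3226 of which each alternative tested) none changed sign. The alternatives refit the same libraries, and their shifts were small against a 2-fold change, so a change of sign was hardly possible. The call itself was kept for 2825 of 3226 with DESeq2 and 3166 with library size alone. Scaling mattered most for small changes. Library size alone, which moved the median log2 fold change of all genes by -0.29, gave 2791 genes higher and 7651 lower, with 3037 lower at least 2-fold. Scaling by 13 reference genes gave 2907 genes higher and 7290 lower, with 2897 lower at least 2-fold, and it moved the interaction to 1723 larger and 462 smaller. In counts of the interaction here, larger again means a more positive log2 change in KO, which includes weaker falls. The share of calls that were higher was 48.4% in the fit reported, 26.7% with library size alone and 28.5% with the reference genes. RLE size factors gave 4886 higher and 4679 lower, DESeq2 4407 and 3938, and the fit of only the 5 WT libraries 4739 and 4767. With the test beyond 2-fold (glmTreat), 868 genes were higher and 705 lower.

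Leaving out 1 of the 5 libraries gave 4052 to 4500 genes higher and 4000 to 4694 lower. For the interaction, leaving out 1 library gave 594 to 1648 genes larger and 568 to 1431 smaller. The highest counts came without replicate 1 of KO LPS and the lowest without replicate 2 of KO LPS, and without replicate 2 of WT LPS they were 632 and 580. A lone library left in a group is assumed to vary like the other groups. With a replicate block, 4394 genes were higher and 4579 lower, 1309 and 1769 of them at least 2-fold, and the interaction gave 820 larger and 723 smaller. Whether the numbers of the libraries pair them could not be decided. Deviations of same-numbered WT and WT LPS libraries correlated at -0.03 and 0.01, but those of the 2 WT LPS libraries mirror each other by construction.

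Of the values of named genes under the alternatives, 3681 kept direction and side of the threshold, 55 lost the call, 7 gained it and 1 reversed, RPL5 with -0.0015 by library size alone. With 2 libraries given LPS, precision is limited for genes whose WT LPS replicates differ, and below 0.199 CPM a level cannot be told from 0.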

Other observations

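The 2 WT LPS libraries differed from each other for some genes of lipid handling, lysosome and iron more than the 3 WT libraries did, and the genes given here were picked after their values were seen. APOE was at 3776 and 2767 CPM, FTH1 at 1861 and 1109 CPM, CTSD at 297 and 217 CPM, GPX1 at 479 and 362 CPM and CST3 at 770.5 and 603 CPM, in each case with the higher value in replicate 1.

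Markers of cells that the culture may also hold were low or divided. The 14 tested granulocyte and mast cell markers summed to 845 to 900.1 CPM in WT and 902 to 905 CPM in WT LPS, and MPO, ELANE, PRTN3 and AZU1 were too low to test. The 7 tested lymphocyte markers summed to 987 to 1003 CPM in WT and 669 to 714 CPM in WT LPS, most of it CD4, which macrophages also express, at 984, 968 and 968 CPM in WT and 675 and 632 CPM in WT LPS. The 6 tested progenitor and erythroid markers summed to 157 to 164 CPM in WT and 128 to 156 CPM in WT LPS, while CD34 and HBB were too low to test.

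CSF3, the granulocyte growth factor, had no count in WT and 7 in WT LPS, which is at least 1.44-fold higher against the floor of 3 counts per library. LCN2, a siderophore-binding protein that LPS is known to induce in other cells, had no count in any of the 5 libraries, and ARG1 had 3 to 6 counts in each.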
